A study of Mus musculus with 7 samples.

Results

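The T cell receptor complex and its coreceptors were followed through tumours grown from J558 cells, a mouse myeloma line. The members were 10 genes chosen by name: Cd3d, Cd3e, Cd3g, Cd247, Cd8a, Cd8b1, Cd4, Lck, Zap70 and Thy1. Every probe annotated with one of these symbols was taken, which gave 11 of the 23978 probes and 8 of the 10 genes, and Cd8a and Lck, for which no probe was named, are not analysed here. The tumours came from male BALB/c mice, aged 10 weeks by the sample labels, which had received the cells under the skin of the neck. For 4 weeks the mice drank either distilled water (control, 4 samples) or oil palm phenolics (OPP, 3 samples) at 1500 ppm gallic acid equivalents (GAE). Each sample was hybridised to 1 single-colour BeadChip, and the comparison asks which transcripts differ between tumours of OPP-treated and control mice. All tumours grew from 1 cell line, RNA was chosen for its integrity, and which mouse each sample came from is not stated in the sources used here. The p-values therefore measure only the spread between these samples, which may be technical.

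The T cell receptor recognises peptides held by major histocompatibility complex (MHC) molecules, but its 2 variable chains have no signalling tails of their own. The signal is carried by the CD3 delta, epsilon and gamma chains and by the zeta chain, which Cd247 encodes. CD8, made of the products of Cd8a and Cd8b1, binds MHC class I, and CD4 binds MHC class II. Both bring the kinase Lck to the receptor, where it phosphorylates the CD3 and zeta chains, and the kinase Zap70 then docks on them. Thy1 is a small surface glycoprotein of mouse T cells that fibroblasts and other cells can also carry. In tumours, transcripts of these genes are commonly read as a sign of infiltrating T cells. In RNA of whole tumours, however, fewer cells of a type and less RNA per cell cannot be told apart.

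Of the 10 genes, Cd3g, Cd3d and Cd3e lie on chromosome 9, as Thy1 does, Cd8a, Cd8b1 and Cd4 on chromosome 6, Zap70 and Cd247 on chromosome 1 and Lck on chromosome 4. Cd3g and Cd3d are transcribed away from each other from starts 1355 bases apart. Because the 3 CD3 chain genes varied together over the arrays, the 250 bases before the start of each are shown, from RefSeq on GRCm38.p6, read along the strand of the gene. The window of Cd3g is chr9:44980432-44980681 (minus strand), that of Cd3d is chr9:44981536-44981785 (plus strand) and that of Cd3e is chr9:45009612-45009861 (minus strand). Capitals mark the E-box CANNTG, the motif bound by E proteins, which act throughout T cell development.
Cd3g: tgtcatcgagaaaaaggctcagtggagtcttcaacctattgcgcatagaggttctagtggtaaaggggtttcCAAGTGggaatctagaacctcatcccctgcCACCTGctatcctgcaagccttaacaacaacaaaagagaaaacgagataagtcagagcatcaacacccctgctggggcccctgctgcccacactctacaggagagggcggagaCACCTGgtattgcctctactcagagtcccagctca
Cd3d: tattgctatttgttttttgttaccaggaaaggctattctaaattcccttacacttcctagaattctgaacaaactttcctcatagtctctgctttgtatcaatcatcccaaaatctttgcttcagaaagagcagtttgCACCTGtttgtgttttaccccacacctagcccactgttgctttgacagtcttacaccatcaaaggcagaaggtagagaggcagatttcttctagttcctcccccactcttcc
Cd3e: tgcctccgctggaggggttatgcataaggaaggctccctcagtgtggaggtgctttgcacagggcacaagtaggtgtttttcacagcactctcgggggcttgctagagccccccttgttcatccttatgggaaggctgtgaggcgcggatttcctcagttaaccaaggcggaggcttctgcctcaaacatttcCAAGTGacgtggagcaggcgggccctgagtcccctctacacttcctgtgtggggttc
The E-box, which reads the same on both strands, occurred 3 times before Cd3g, once before Cd3d and once before Cd3e. It was found in 66.2% of all 32851 promoter windows of this length. The core GGAAG of ETS factors, searched on both strands, occurred 2 times before Cd3d and 3 times before Cd3e and was not matched before Cd3g, while 64.1% of all windows held it. No E-box in these 3 windows overlapped an ETS core. The motif TATAAA, searched on both strands, was in none of the 3 windows and in 12.4% of all. A match describes the letters only. Promoter windows were held for 7 of the 10 genes.

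Values are the authors' background-subtracted and normalised intensities, on a linear scale, called signals here. A signal was taken as above noise when it exceeded the 99% point of the noise on its own array, estimated from values below 0, which gave limits of 20.7 to 26.7. Above them lay 44.4% to 47.0% of the probes on each array, and median signals ran from 14.1 to 17.3. The plasma cell markers Xbp1 and Irf4 were far above the limit on all 7 arrays, with 15390.9 to 20728.1 and 2936.8 to 3462.2. Control 1 and OPP 3 stood apart from the other 5 arrays for most of the detected members, so results are given with and without them. Over all 10366 tested probes, the log2 deviations of these 2 arrays from their group means had a Pearson r of 0.48, the highest among the 9 pairs of controls 1 to 3 with OPP 1 to 3, as a description of arrays that share all probes.

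Transcripts of the 3 CD3 chains were clearly detected on 5 of the 7 arrays, were near the noise limit in control 1 and lay below it in OPP 3. The probe of Cd3e, the chain that pairs with both other CD3 chains, gave signals of 21.6, 405.5, 324.7 and 409.0 in controls 1 to 4 and of 188.8, 113.7 and -2.3 in OPP 1 to 3. In control 1 this was only just above the limit of 20.7. Cd3d, the delta chain, gave 25.2, 401.4, 282.6 and 349.3 in the controls and 212.1, 107.8 and 8.2 with OPP. Cd3g, the gamma chain, gave 41.5, 473.8, 360.2 and 490.0 in the controls and 237.7, 138.7 and -2.8 with OPP. For all 3 chains, controls 2 to 4 were the highest arrays, OPP 1 and OPP 2 followed, and control 1 lay below both of these, so that the groups overlapped.

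**Figure D1:**
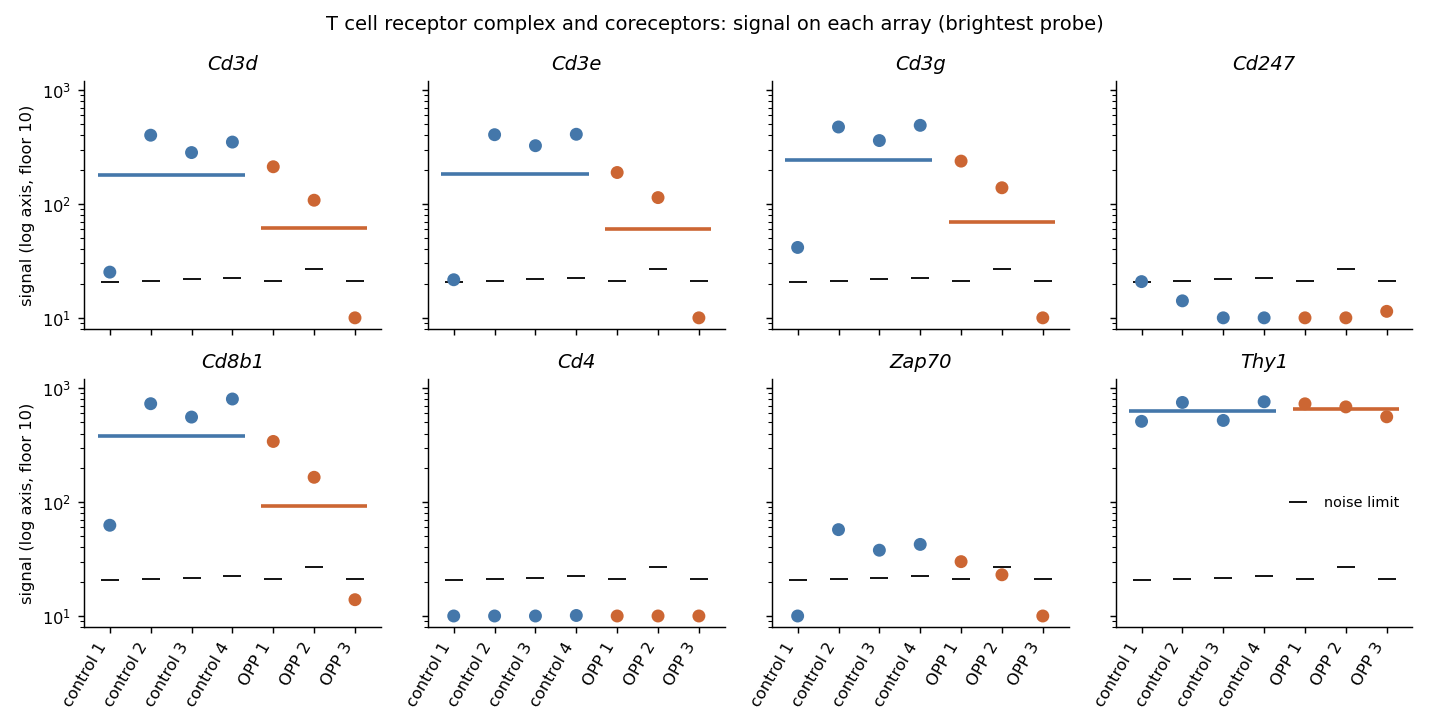
Signal of the brightest probe of each of the 8 measured genes on a log axis, with values under 10 drawn at 10. Points are arrays (blue, control; orange, OPP), dashes are the noise limit of each array and lines are group means of log2 signals, drawn for the 5 tested genes. Cd3d, Cd3e, Cd3g and Cd8b1 drop in control 1 and OPP 3, whereas Thy1 stays between 511.6 and 760.3.

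Cd8b1, the beta chain of CD8, followed the CD3 chains. Its brighter probe gave 62.6, 730.9, 557.7 and 803.7 in controls 1 to 4 and 340.7, 165.1 and 13.9 in OPP 1 to 3. The second probe of Cd8b1 was dim, with -4.4, 26.7, 18.8 and 28.8 in the controls and 7.5, 12.1 and -8.9 with OPP. It passed the limit on controls 2 and 4 only, so the order of its other arrays is not measured.

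Cd4, the coreceptor of helper T cells, was not above noise on any array. Its single probe ranged from -13.2 to 10.1 in the controls and from -0.8 to 1.4 with OPP. A low signal of 1 probe does not show that the transcript was lacking, since this probe was bright on none of the arrays. Macrophages and dendritic cells can carry Cd4 too, and macrophage markers such as Lyz2 (2026.7 to 4386.6 over all arrays) were bright in these tumours.

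The signalling members were dim. Zap70, the kinase that docks on the phosphorylated receptor, gave -3.1, 57.3, 37.8 and 42.5 in controls 1 to 4 and 30, 23.0 and -10.5 in OPP 1 to 3 at its brighter probe. Controls 2 to 4 and OPP 1 were above noise, so the probe passed in neither whole group and was not tested over the 7 arrays. The other probe of Zap70 stayed between -7.1 and 9.9, below the limit on all arrays. Of the 2 probes of Cd247, the zeta chain, one gave 20.8, 14.1, 9.0 and 8.2 in the controls and 10.0, 7.4 and 11.4 with OPP, and the other stayed between -12.0 and 12.1. Only the first value, in control 1, reached the limit, so that the zeta chain could not be compared at this signal.

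Thy1 was the only member above the limit on all 7 arrays. It gave 511.6, 749.6, 521.0 and 760.3 in the controls and 729.2, 685.1 and 560.8 with OPP. Its highest array was 1.49 times its lowest, and the groups overlapped. Sources of Thy1 other than T cells were present, since the 6 fibroblast markers summed to 3919.6 to 6614.3 over the arrays and all 6 passed the filter. Their part in the Thy1 signal was not tested.

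Cd3d, Cd3e, Cd3g and Cd8b1 rose and fell together over the arrays. With each probe set against its own highest array, their 4 values lay between 5.28% and 8.47% in control 1, 90.9% and 100% in control 2, 69.4% and 79.4% in control 3 and 87.0% and 100% in control 4. In OPP 1 they lay between 42.4% and 52.8%, in OPP 2 between 20.5% and 28.3%, and in OPP 3 at 2.04% or less. The 4 probes thus gave nearly the same proportions on each array, and the spread between arrays of a group was far larger than that between the probes. As centred log2 profiles, they differed from their common mean by a root mean square of 0.12 (Cd3g) to 0.17 (Cd8b1), and Thy1 by 1.82. The median over 8861 other tested probes with a gene name was 1.96. The common mean was taken over these same 4 probes, grouped after their values were seen, so small differences from it are partly built in. In OPP 3, the signals of Cd3d, Cd3e and Cd3g were all raised to the same floor before log2, which adds to their likeness. Setting them beside Thy1 and the other probes is therefore no test. These values describe 7 arrays that all genes share.

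**Figure D2:**
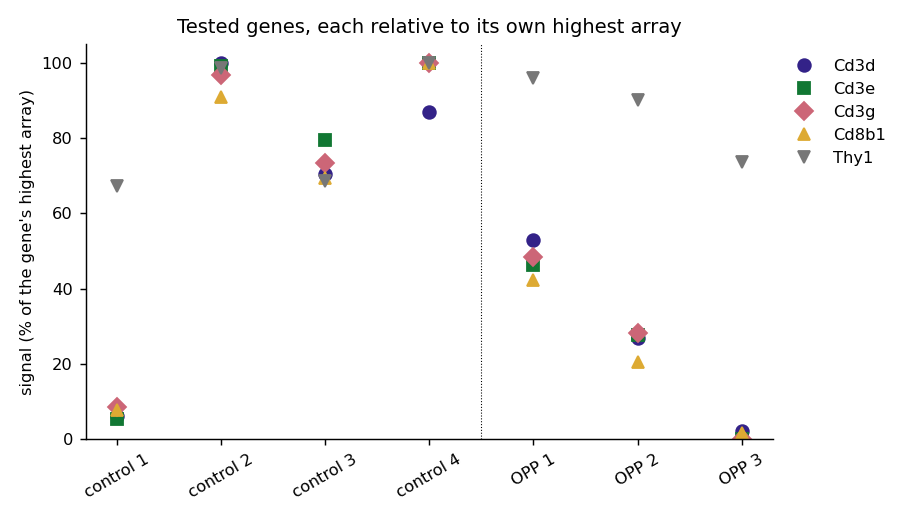
Signal of the 5 tested genes on each array as a percent of the highest array of that gene (values below 0 drawn at 0), with controls left and OPP right of the dotted line. Symbols of Cd3d, Cd3e, Cd3g and Cd8b1 nearly coincide, at 5.28% to 8.47% in control 1 and at most 2.04% in OPP 3, while Thy1 varies little.

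Differences within a group were large. Control 2 exceeded control 1 by 11.4-fold (Cd3g) to 18.8-fold (Cd3e) over the 4 probes, both arrays being above noise. OPP 1 exceeded OPP 2 by 1.66-fold (Cd3e) to 2.06-fold (Cd8b1). Against the noise limit of OPP 3, OPP 1 was at least 8.99-fold higher for Cd3e and at least 16.2-fold higher for Cd8b1. On the log2 scale the range over 7 arrays was 5.33 for Cd3d, 5.35 for Cd3e, 5.61 for Cd3g and 5.85 for Cd8b1, against a median of 0.55 over all tested probes. Between 17 and 24 of the 10366 tested probes had a larger range than these members. OPP 3 lay below the noise limit for all 4, so its place within these ranges is not measured. Low signals were also raised to a fixed floor before log2 was taken. For Cd3d, Cd3e and Cd3g, OPP 3 was under that floor, which thus set the lower end of their ranges. The ranges of these genes, and their rank among the tested probes, therefore depend on the chosen floor. For Cd8b1 the lower end was a signal of OPP 3 above the floor but below noise.

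In the comparison of OPP with control, means of the CD3 chains and of Cd8b1 were lower with OPP, but no member differed past the spread of the arrays. Cd8b1 averaged 539 (SD 334) over the 4 control arrays and 173 (SD 164) over the 3 OPP arrays, with a log2 difference of -2.04 (SE 1.27, 95% interval -5.00 to 0.93; limma, adjusted p = 0.644). Cd3g had means of 341 (SD 208) and 125 (SD 121), with a log2 difference of -1.81 (SE 1.27, 95% interval -4.77 to 1.14; limma, adjusted p = 0.673). For both genes the SD of each group was large against its mean, and the interval runs from far below 0 to above it.
Cd3e had means of 290 (SD 183) and 100 (SD 96.3), with a log2 difference of -1.62 (SE 1.34, 95% interval -4.75 to 1.5; limma, adjusted p = 0.724). Cd3d had 265 (SD 167) and 109 (SD 102), with a log2 difference of -1.54 (SE 1.29, 95% interval -4.54 to 1.47; limma, adjusted p = 0.726). These log2 differences are on values floored at 10. With a floor of 50 they were -1.42 for Cd8b1, -1.15 for Cd3e, -1.11 for Cd3g and -1.01 for Cd3d. Thy1 had 636 (SD 138) and 658 (SD 87.3), with a log2 difference of 0.07 (SE 0.19, 95% interval -0.37 to 0.51; limma, adjusted p = 0.920). Its interval spans 0.774-fold to 1.42-fold.

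Of the 11 probes, 5 passed the filter and 6 did not. Cd3d, Cd3e, Cd3g and Cd8b1 passed only through the control group, where control 1 was above the limit as well, and OPP 3 lay below it for all 4. No member was called at an adjusted p under 0.05 by limma, and the share called over all 10366 tested probes was 0%. At an unadjusted p under 0.05, 0 of the 5 members passed, against 9.36% of all tested probes (5.81% higher and 3.55% lower with OPP). Groups did not overlap for 0 of the 5, against 9.7% of all tested probes (5.9% higher and 3.79% lower with OPP). The methods' t-test on the same log2 values also called 0 of the 5 members, at an unadjusted p under 0.05 as well as after adjustment. Over all 10366 tested probes that t-test had 908 at an unadjusted p under 0.05 and 0 after adjustment. The median log2 difference of the 5 was -1.62, against 0.01 over all tested probes, but it is the value of 1 probe within a set that varies together. The exact two-sided permutation p over the 35 splits of the arrays was 0.343 for each of Cd3d, Cd3e, Cd3g and Cd8b1 and 0.857 for Thy1, with 0.0571 the smallest this design allows.

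The size of the difference depended on which arrays were used, most of all on control 1, OPP 1 and OPP 3. Without control 1, log2 differences were -2.90 for Cd8b1, -2.66 for Cd3g, -2.66 for Cd3e and -2.48 for Cd3d, and Zap70, which then passed the filter, had -1.25. The unadjusted limma p was 0.0352 for Cd8b1, 0.0379 for Cd3e, 0.0495 for Cd3g, 0.0526 for Cd3d and 0.0197 for Zap70. Under 0.05 lay 4 of 6 tested members, beside 12.1% of all tested probes, with adjusted limma p from 0.341 to 0.415. These 4 passed the filter only through the controls and vary together, so nothing is read from their count. Without OPP 1, log2 differences were -2.98 for Cd8b1, -2.70 for Cd3g, -2.45 for Cd3e and -2.44 for Cd3d, with unadjusted limma p from 0.0658 to 0.148. Without OPP 3, they shrank to -0.67 for Cd8b1, -0.42 for Cd3g, -0.33 for Cd3e and -0.23 for Cd3d, with unadjusted limma p from 0.550 to 0.845. In both of these cases 0 of the 5 tested members were under 0.05. Beside them lay 1032 of all 10515 tested probes without OPP 1 and 838 of 10509 without OPP 3. With both arrays left out, a choice made after these values were seen and given without a test, differences were -1.54 for Cd8b1, -1.37 for Cd3e, -1.27 for Cd3g, -1.17 for Cd3d, -0.78 for Zap70 and 0.08 for Thy1. The direction for the CD3 chains and Cd8b1 was the same in each of these cases.

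**Figure D3:**
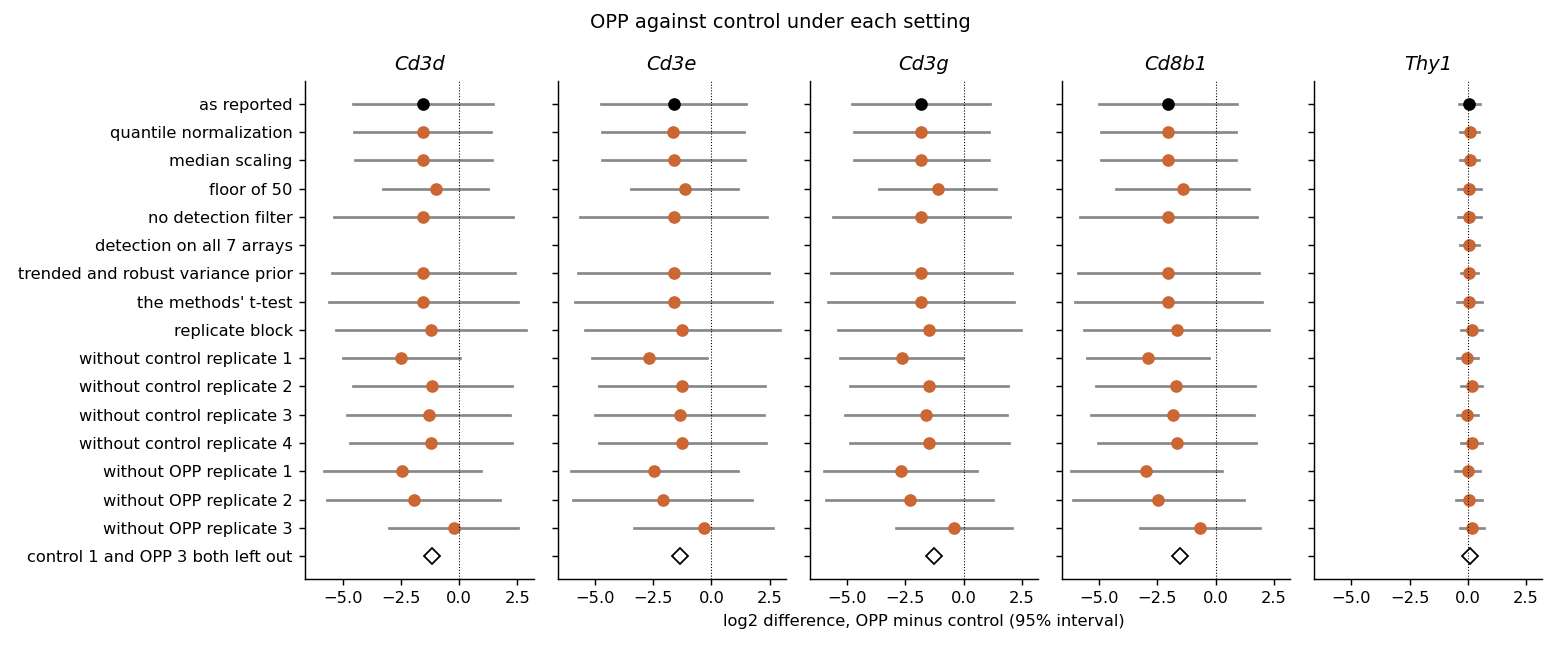
Log2 difference between OPP and control arrays for the 5 tested genes as reported and under each alternative, with 95% intervals from limma; the diamonds, for both arrays left out, are drawn without one. Values for Cd3d, Cd3e, Cd3g and Cd8b1 stay below 0, from -2.98 to -0.23, and those for Thy1 lie on both sides of 0.

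Variable chains of the receptor itself gave little signal. No probe was named for the constant regions Trac, Trbc1, Trbc2, Trdc and Trgc1, but 32 probes carried identifiers of variable segments (18 alpha, 12 beta, 1 delta and 1 gamma). They were added after the values were seen. On no array did 24 of them exceed the limit, and 1, TRAV14D-2, did so on all 7. That segment had signals of 320.1, 207.2, 413.8 and 177.1 in the controls and 351.7, 298.7 and 141.0 with OPP. It thus did not share the low value of the CD3 chains in control 1, though OPP 3 was its lowest array. TRBV1, which was dim, gave 2.9, 21.5, 31.8 and 54.9 in the controls and 34.8, 2.5 and 1.4 with OPP. It passed the limit on controls 2 to 4 and OPP 1 only. TRBV31 passed on controls 2 and 3 and OPP 1, and each remaining segment on 1 array at most. Rag1, Rag2 and Dntt, which assemble the receptor genes in developing lymphocytes, were below the limit on all arrays. Ptcra, the pre-T-cell receptor alpha chain of thymocytes, was dim, with 32.5 to 50.3 in the controls and 49.0 to 56.8 with OPP (log2 difference 0.38, limma, unadjusted p = 0.0417, adjusted p = 0.511). It was the only one of these assembly genes tested, and the groups overlapped.

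Among 31 genes that carry the receptor signal onward, 27 had a probe and 17 were tested. Counted at the brightest probe of each gene, as for all lists here, none was called, 1 was lower with OPP at an unadjusted p under 0.05 and 0 were higher, with a median log2 difference of -0.12. A dimmer probe of Nfatc1, a factor related to Nfatc3, was higher, with 19.3 to 25.6 in the controls and 36.5 to 42.6 with OPP (log2 difference 0.77, limma, unadjusted p = 0.000342, adjusted p = 0.281). The groups did not overlap at this probe, which was noticed after the values were seen, while the other 4 tested probes of Nfatc1 had log2 differences of -0.13 to 0.30. The gene lower at its brightest probe was Nfatc3, a calcineurin-dependent transcription factor, with 207.2 to 250.3 in the controls and 181.3 to 202.5 with OPP (log2 difference -0.27, limma, adjusted p = 0.499). Its groups did not overlap, but it varied little between arrays and did not follow the CD3 chains. Fyn, a kinase related to Lck, had a log2 difference of 0.33, and Ppp3cb, a catalytic subunit of calcineurin, of -0.19 (limma, adjusted p = 0.543 and 0.638). Sh2d2a, the T cell-specific adaptor that binds Lck, gave 45.6, 470.0, 412.7 and 460.3 in the controls and 219.3, 147.0 and 18.9 with OPP. Its difference of -1.58 was within the spread of the arrays (limma, adjusted p = 0.670). As for the CD3 chains, controls 2 to 4 were highest, and control 1 and OPP 3 lowest.

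Other signalling genes, picked after their values were seen, were low on the same 2 arrays. Lat, the membrane scaffold phosphorylated by Zap70, gave -0.1, 110.4, 71.3 and 78.6 in the controls and 52.6, 27 and -1.8 with OPP, and was not tested. Ptprc, the phosphatase CD45 that keeps Lck active and is found on all leukocytes, gave 54.4, 320.5, 214.9 and 331.4 in the controls and 215.3, 145.9 and 63.8 with OPP. Fyb, an adaptor bound to SLP-76, gave 61.2, 307.9, 187.9 and 233.1, then 205.5, 111.2 and 47.6. In Ptprc and Fyb the drop was smaller in proportion than in the CD3 chains, and both remained above the limit throughout. Control 1 and OPP 3 were the 2 lowest arrays for 4 of the 5 tested members, 8 of the 17 activators and 5 of the 9 inhibitors, against 11.1% of all tested probes. This ordering was noticed in the members, so these counts are a description.

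**Figure D4:**
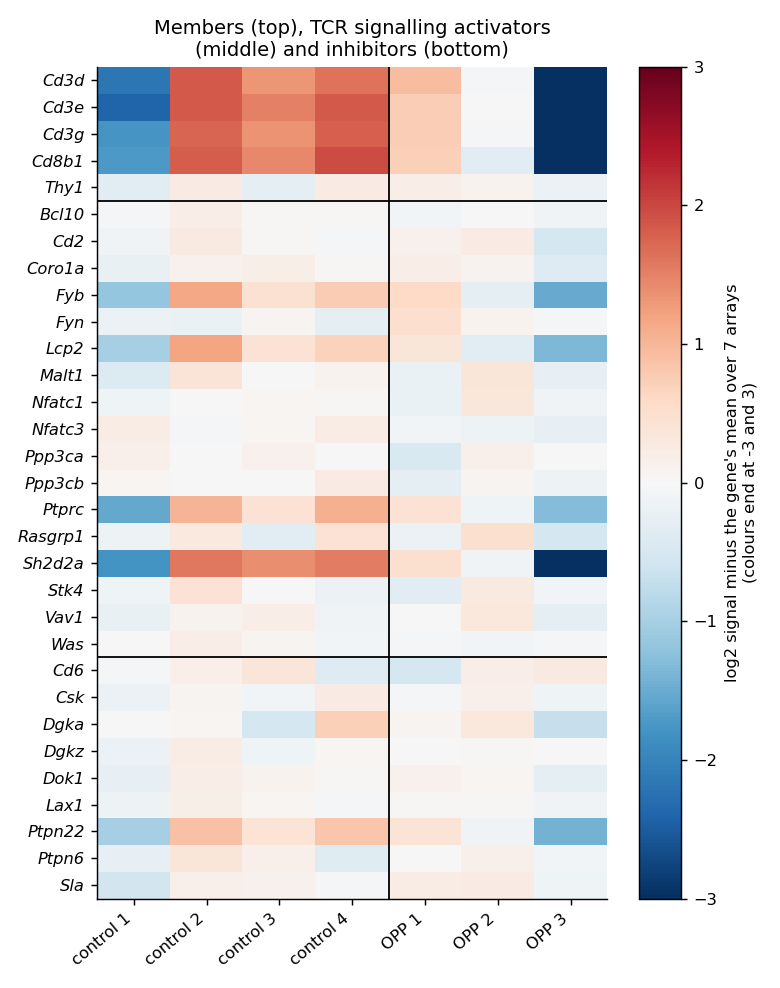
Log2 signal of each gene minus its own mean over 7 arrays, for the 5 tested members (top block), 17 activators (middle block) and 9 inhibitors (bottom block) of receptor signalling; red is above and blue below the mean. Sh2d2a, Fyb, Lcp2, Ptprc and Ptpn22 are blue in control 1 and OPP 3 as the CD3 chains are, and most other genes stay near 0.

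Of 20 inhibitors of the signal, 17 had a probe and 9 were tested, with 0 called, 0 at an unadjusted p under 0.05 in either direction and a median log2 difference of -0.03. Ptpn22, a phosphatase that acts on Lck and Zap70, gave 76.5, 282.1, 202.6 and 272.4 in the controls and 203.6, 141.4 and 57.8 with OPP (log2 difference -0.65, limma, adjusted p = 0.738). It was lowest in control 1 and OPP 3. Sla, a Src-like adaptor, had a log2 difference of 0.19, Dgka, which removes diacylglycerol, of -0.16, and Dok1, a docking protein, of -0.06, all within the spread of the arrays (limma, adjusted p from 0.775 to 0.908).

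Costimulatory and inhibitory receptors and their ligands numbered 24, of which 21 had a probe and 9 were tested. None was called, and 1 was lower at an unadjusted p under 0.05 and 0 higher, with a median log2 difference of 0.03. Cd48, the ligand of CD2 in mice, had 94.9 to 124.2 in the controls and 81.2 to 94.1 with OPP (log2 difference -0.32, limma, adjusted p = 0.509), without overlap. Icosl, the ligand of ICOS, had a log2 difference of 0.52, and Cd80, a ligand of CD28 and CTLA-4, of 0.14 (limma, adjusted p = 0.539 and 0.723). Icosl did not overlap between the groups either, with 12.2 to 25.2 in the controls and 25.7 to 28.6 with OPP. Pdcd1, which encodes the inhibitory receptor PD-1, gave 22.4, 59.2, 43.9 and 46.4 in the controls and 40.3, 25.0 and 27.3 with OPP (log2 difference -0.43, limma, adjusted p = 0.709). Control 1 was its lowest array. Lag3, another inhibitory receptor, picked after its values were seen and not tested, gave 1.3, 100.1, 77.7 and 74.7, then 53.9, 38.1 and -5.1, with control 1 and OPP 3 lowest.

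Of 17 transcription factors of the T lineage, 14 had a probe and 6 were tested, with 0 called or under an unadjusted p of 0.05 and a median of -0.16. Lef1, Gata3, Tbx21, Runx3, Foxp3 and Ets1 were below the limit on all arrays. Eomes, a factor of CD8 and natural killer (NK) cells, gave 25.4, 48.6, 50.1 and 49.2, then 51.0, 29.9 and 4.1 (log2 difference -0.75, limma, adjusted p = 0.676). Klf2, a factor of quiescent T cells also made by endothelium, had a log2 difference of -0.44, Ikzf1 of 0.29 and Notch1 of -0.12 (limma, adjusted p from 0.662 to 0.826). Tox, picked after its values were seen and not tested, gave 7.9, 178.6, 144.0 and 176.1 in the controls and 75.5, 24.6 and 1.0 with OPP. Eomes and Tox thus had their lowest values in control 1 and OPP 3.

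Of 14 homing and cytokine receptors, 10 had a probe and 5 were tested, with 0 called or under an unadjusted p of 0.05 and a median of -0.24. Cxcr6, a chemokine receptor of tissue-resident and activated T cells, gave 24.2, 325.7, 233.2 and 298.8 in the controls and 117.0, 73.2 and -5.8 with OPP (log2 difference -1.80, limma, adjusted p = 0.650). Itgb7, an integrin chain, gave 23.5, 62.8, 65.9 and 75.5, then 38.5, 41.6 and 14.8 (log2 difference -0.86, limma, adjusted p = 0.625). Both had control 1 and OPP 3 as their lowest arrays. Cd44 had a log2 difference of 0.34 and Itgal of 0.28 (limma, adjusted p = 0.670 and 0.784). Itgal, though higher in mean with OPP, was also lowest in control 1 (86.4) and OPP 3 (112.2). This ordering held for 4 of the 5 tested genes, against 11.1% of all tested probes, and is a description.

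Cd2 and Cd6, surface molecules that T cells share with other lymphocytes, varied far less than the CD3 chains.
Cd2 gave 906.1, 1181.8, 995.3 and 933.3 in the controls and 1070.8, 1160.3 and 676.5 with OPP, and Cd6 gave 576.4, 663.7, 769.1 and 460.6, then 418.5, 693.3 and 721.5. Their log2 differences were -0.08 and -0.03 (limma, adjusted p = 0.907 and 0.972). Cd2 had control 1 and OPP 3 as its 2 lowest arrays as well, but by a small margin. Control 1 retained most of the signal of both genes, whereas it had at most 8.47% of the highest signal of each CD3 chain.

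Markers of other cell types moved with the CD3 chains to different degrees. The 6 NK markers summed to 156.1, 1101.3, 920.3 and 1126.2 in the controls and 564.5, 408.3 and 88.0 with OPP. Of these genes 5 were tested, 4 lower and 1 higher with OPP, with 0 called and a median log2 difference of -1.24. Ncr1, a defining NK receptor, was below the limit on all arrays. Klrk1, the NK marker with the smallest p, had a log2 difference of -1.24 (limma, adjusted p = 0.580). Nkg7 and Klrd1, which cytotoxic T cells share with NK cells, had log2 differences of -1.49 and -1.59 (limma, adjusted p = 0.770 and 0.641). The NK sum was lowest in control 1 and OPP 3, as were Klrk1, Klrd1, Nkg7 and Eomes. Klrb1c, named after its values were seen, was the tested NK gene higher with OPP and did not have that ordering.
The 6 macrophage markers with a probe summed to 4843.8 to 11002.2 in the controls, lowest in control 1, and to 5769.5 to 8504.2 with OPP, lowest in OPP 3. The 6 dendritic cell markers summed to 105.5 to 197.9 and 81.1 to 138.9, with the same 2 lowest arrays, and Flt3 was below the limit on all. Only 1 of the 6 was tested, Siglech, which was highest in control 1 (79.2) and lowest in OPP 3 (54.3). The low sum of control 1 thus came from genes that did not pass the filter. The part of these cell types in the values of the members was not tested.
Plasma cell markers, which the tumour cells carry, summed to 20106.3 to 23538.7 in the controls and 20142.2 to 25924.2 with OPP. Most of this sum was signal of Xbp1, and Mzb1 of the same list was dim, with 35.1 to 111.7 and 9.0 to 55.2. Endothelial markers summed to 496.4 to 714.5 in the controls and 633.4 to 711.7 with OPP. B cell markers, nearly all signal of Cd79b, summed to 1996.5 to 2964.1 and 2588.4 to 3471.1. Neither control 1 nor OPP 3 stood out low for endothelium. Skeletal muscle markers separated the groups, with sums of 4191.5, 5487.5, 9666.1 and 15480.5 in the controls and 25.4, 2754.0 and 386.4 with OPP. All 5 tested muscle genes were lower at an unadjusted limma p under 0.05, beside 3.55% of all tested probes. Their median log2 difference was -4.13, and 0 were called. Of these genes, Mybpc1, Tcap, Tnnt3 and Ckm passed the filter only through the controls, where they were high. The list was also chosen with earlier results of these data known, so nothing is read from the count. The order of the muscle markers over the arrays was not that of the CD3 chains, since control 1 was high in muscle signal against every OPP array. The part of muscle tissue in the comparison was not tested.

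**Figure D5:**
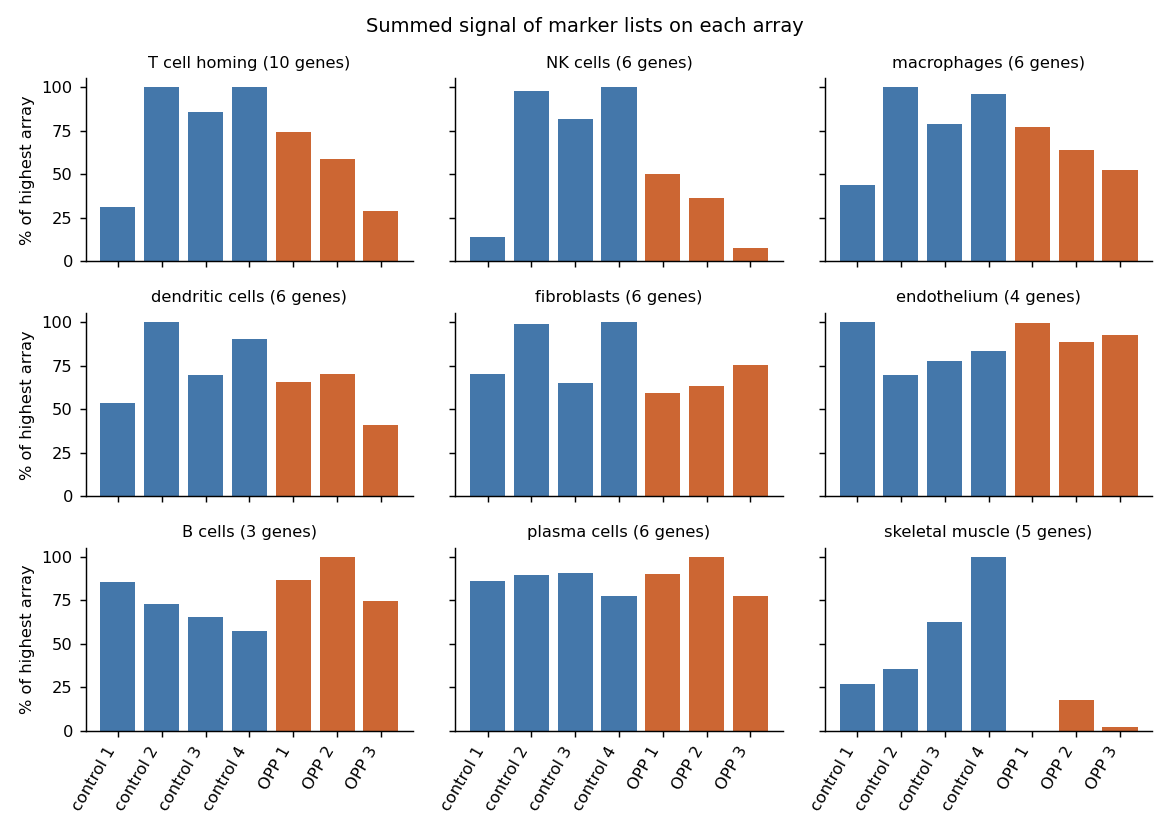
Summed signal of 9 marker lists on each array as a percent of the highest array (blue, control; orange, OPP). Sums of NK cell and T cell homing genes are lowest in control 1 and OPP 3, and those of macrophage and dendritic cell genes less steeply so. Sums of skeletal muscle genes are higher in all 4 controls than on any OPP array.

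The genes most like Thy1 in centred log2 profile over the 7 arrays were Sec14l1 (root mean square difference 0.06), Lgsn (0.08), Txnl4a (0.09), Ninj1 (0.09), Zfp90 (0.09), Pros1 (0.10), Mms22l (0.10) and Hnrnpul1 (0.11), with a median of 0.29 over 8861 probes. Thy1 was the only member above the limit on all arrays and so alone set this profile. For the mean profile of Cd3d, Cd3e, Cd3g and Cd8b1, a profile defined after the values were seen, the nearest were Cxcr6 (0.26), Nkg7 (0.29), Sh2d2a (0.30), H2-Aa (0.44), Ccl5 (0.46), Klrd1 (0.52), Fpr2 (0.53) and H2-Eb1 (0.60). Of these, Ccl5, a chemokine made by activated T and NK cells, gave 129.5, 1033.0, 1128.8 and 1177.2 in the controls and 818.6, 600.1 and 61.6 with OPP. H2-Aa, an MHC class II chain of antigen-presenting cells, gave 114.3, 748.3, 629.4 and 871.4, then 566.7, 369.6 and 36.7. In OPP 3, Cxcr6 (-5.8) and Nkg7 (6.7) were raised to the same floor as the CD3 chains, which adds to their likeness.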

How the data were processed

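The authors amplified tumour RNA, hybridised it to MouseRef-8 BeadChips (version 1) and extracted signals with BeadStudio, which the submitters' processing notes give as version 1.5.1.3. The deposited intensity values are background-subtracted, rank invariant-normalised and linear, and outlier samples had been removed by the authors. Background subtraction puts dim probes around 0, and normalisation assumes a stable set of genes. No slide or scan date was given in the sources used here.

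From 24048 probes, 66 without a value and 4 bacterial controls were left out. GEO's platform annotation gave 19343 of the remaining 23978 probes 1 gene symbol, 4635 none and 0 several. Values under 10 were set to 10, and log2 was taken. A signal above noise exceeded the 99% point of normal noise whose SD was the root mean square of the values below 0 on its array. Probes above it on every array of at least 1 group (10366) were tested in limma 3.58.1 (lmFit, eBayes; R 4.3.3), with all 7 arrays, two-sided p and Benjamini-Hochberg adjustment over all tested probes. The number of arrays limits the precision. The test replaces the methods' error model, which needs bead-level errors. Where a gene had several probes, lists used the brightest. Exact permutation tests doubled the smaller tail. The procedure was tested on simulated data. Tables, promoter scans and plots used Python 3.11.15, pandas 2.3.3 and matplotlib 3.10.9.

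Of each list of receptor and T cell genes, up to 4 tested genes with the smallest p were named. Lists of other cell types are given mainly as sums, and not all of their genes with the smallest p are named. Also named were every member, the 8 genes most like the members above noise on all arrays, and others that are said to be picked after their values were seen. The members and lists were chosen with earlier results of these data known. Alternatives changed the normalization (quantile, or equal medians), the floor (50), the detection filter (none, or all 7 arrays) and the variance prior (trended and robust), or used the methods' t-test (stated there for group outcomes, not for arrays), a replicate block or fewer arrays. A further deposited table was left aside, since its 14 columns, signals beside detection scores, could be tied to no sample.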

Additional observations from a re-analysis of the deposited data

Results flagged for a closer look

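Within the 4 control arrays, control 1 stood apart for 13 of 63 probes checked, and no other control did for any of them. The measure was the gap from the lowest or highest array to its nearest neighbour as a share of the range of the 4 log2 signals (Dixon's ratio), set against its 95% critical value for 4 values. Chance passes that limit in about 1 group of 20, and the 13 probes vary together, so they are not 13 separate cases. Of the 13, Ccl5, H2-Aa and H2-Eb1 were checked only because their profiles resembled that of the CD3 chains, low control 1 included, so they add nothing to the count.

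Among the members, the share was 0.922 for Cd3e (21.6 in control 1 against 324.7 to 409.0 in the others), 0.875 for Cd3g, 0.873 for Cd3d and 0.857 for Cd8b1. Thy1 did not pass. Among genes of receptor signalling, T lineage factors and homing receptors, it was 0.944 for Sh2d2a, 0.955 for Eomes (25.4 against 48.6 to 50.1), 0.871 for Cxcr6 and 0.842 for Itgb7. Among genes that cytotoxic T cells share with NK cells, it was 0.953 for Nkg7 (21.2 against 409.9 to 474.0), 0.941 for Ccl5 (129.5 against 1033.0 to 1177.2) and 0.854 for Klrd1. The MHC class II genes H2-Aa and H2-Eb1 had 0.840 and 0.879, with 504.8 in control 1 against 2768.4 to 3496.0 for H2-Eb1. The 3 OPP arrays are too few for this check, and the low values of OPP 3 are given as values only.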

How the results depend on the processing

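The log2 differences of Cd3d, Cd3e, Cd3g and Cd8b1 stayed below 0 under all 15 alternatives that tested them, from -2.98 to -0.23, and none was called. The filter that asks for detection on all 7 arrays left Thy1 alone. The number of members at an unadjusted p under 0.05 was 0 in the comparison as reported. When single arrays were left out it ran from 0 to 4 (4 of 6 tested without control 1, beside 12.1% of all tested probes). With control 1 and OPP 3 both left out it was 5 of 6 tested, beside 10.2% of all 10687 tested probes. Those 2 arrays were picked because the members were seen to be low on them, so a smaller spread within groups was built in. Zap70, one of the 5, also passed the filter there only through the controls. The 5 is therefore a description and no test, and nothing is read from it beside that share. Thy1 ran from -0.028 to 0.18 when single arrays were left out. It turned from 0.07 to -0.028 without control 1, to -0.019 without control 3 and to -0.010 without OPP 1, all far within its interval, and the cause was not tested.

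Over all probes, 0 were called as reported, 2 with quantile normalization, with a floor of 50 and with both arrays left out, 1 with the trended and robust prior, without control 4 and without OPP 1, and 4 without OPP 2. Of the tested probes, 970 had an unadjusted limma p under 0.05 as reported and 683 with the replicate block. Of the 970, 62.1% were higher in OPP. Without control 1, 1287 probes were under 0.05, and 42.3% of those were higher in OPP. Samples with the same replicate number did not deviate together (r = -0.27, 0.08 and -0.17 over 10366 probes), so the numbers were not taken as pairs. Control 1 and OPP 3 had r = 0.48. With the replicate block, log2 differences were -1.68 for Cd8b1, -1.48 for Cd3g, -1.24 for Cd3e, -1.22 for Cd3d and 0.16 for Thy1, and 0 were called. With quantile normalization, and without control 4, 1 skeletal muscle gene was called, against 0 as reported. Cd4, Cd247 and most Zap70 values lay below noise, which limits what these arrays show of them.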
